A study of Mus musculus with 45 samples.

Results

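Gene expression was compared between mice killed 7 d after the last session of chronic intermittent ethanol (CIE) vapor and mice killed at the end of that session (0 h). The sample titles gave 6 CIE 7 d and 6 CIE 0 h arrays, together 12 of the 45 arrays of the nucleus accumbens (NAC) in the ventral striatum. All mice were adult male C57BL/6J mice, and each array held total RNA from 1 mouse. CIE mice went through 4 cycles, each with 16 h per day in the vapor chamber on 4 days, and had 7 days without ethanol after a cycle before the next. Ethanol at 1.6 g/kg was injected before vapor, together with 1 mmol/kg of pyrazole, which blocks alcohol dehydrogenase, and the chamber air held 10 to 13 mg of ethanol per l. For control (Ctrl) mice saline replaced the ethanol injection, pyrazole was kept, and the chamber held air. The 6 Ctrl 7 d and 6 Ctrl 0 h arrays served to measure the same interval without ethanol. Between the compared times lie the 5 CIE 8 h, 5 CIE 72 h, 5 Ctrl 8 h and 6 Ctrl 72 h arrays. The 7 d and 0 h mice therefore also differed in the time since pyrazole, the chamber and handling, which the Ctrl mice share.

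The NAC consists mostly of medium spiny neurons, GABA-releasing projection neurons that receive dopamine, with astrocytes, oligodendrocytes, microglia and vessels among them. Ethanol vapor and its withdrawal are stressors that raise glucocorticoids, the steroid hormones that enter the nucleus on the glucocorticoid receptor and induce genes such as Fkbp5 and Tsc22d3. Microglia are the resident immune cells of the brain, and Notch signalling keeps neural progenitors and astrocytes in their state through repressors such as Hes5.

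The values are log2 expression values per probeset, so a change of 1 is a doubling of the measured signal. Below, a change is the 7 d mean minus the 0 h mean with its standard error (SE) from limma, a gene that rose or fell had an adjusted p of 0.01 or less, and n is 6 arrays in each of the CIE 7 d, CIE 0 h, Ctrl 7 d and Ctrl 0 h groups. Array medians lay between 6.94 and 6.96. Arrays carry no count depth, so their number limits the precision. Markers of the labelled tissue were high: the 23 medium spiny neuron genes averaged 11.56 to 12.03 in CIE 7 d arrays and 11.40 to 12.13 in CIE 0 h arrays, and none of them passed. Markers of cortical pyramidal neurons, which mark tissue next to the NAC, averaged 7.81 to 9.63 in CIE 7 d arrays and 8.02 to 9.88 in CIE 0 h arrays, and 0 of 17 passed. The mean correlation with the other arrays was lowest for Ctrl 7 d replicate 62 (0.987), CIE 0 h replicate 72 (0.988) and CIE 7 d replicate 13 (0.989). Without both of these CIE arrays 577 probesets, against 677 with them, passed in the comparison below.

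Over 7 d of abstinence 677 of 45037 probesets (1.5%) changed in CIE mice, 316 up (0.702%) and 361 down (0.802%). They named 235 genes that rose (1.29% of 18193) and 275 that fell (1.51%), and no gene had probesets in both directions. At an adjusted p of 0.05, 1496 probesets passed. Fitted on only the 12 compared arrays, 129 passed, and without CIE 0 h replicate 26 or replicate 5 the counts were 421 and 426. The median size of a called change was 0.38, and 34 called probesets changed by more than 1. In Ctrl mice over the same interval 36 probesets (0.0799%) passed, 10 up and 26 down, and 25 of these were among the 677 with the same sign. Without Ctrl 7 d replicate 62, 22 passed in Ctrl mice. The change itself differed between CIE and Ctrl mice for 90 probesets (0.2%), 41 with a larger change in CIE and 49 with a smaller or more negative one, and 85 of them were among the 677. The difference uses the same CIE arrays as the 677, so this overlap is partly built in. With the hybridization sets, groups of arrays inferred to have been processed together, as a block, 461 probesets passed for CIE, 19 for Ctrl and 16 for the difference. Among the 316 probesets that rose in CIE mice the median change was 0.37 in CIE and 0.03 in Ctrl. Of the 361 that fell the median change was -0.39 in CIE and -0.0003 in Ctrl. These probesets were chosen by their change in CIE mice, which enlarges the CIE medians. The medians are therefore a description and not a test of CIE against Ctrl. Of the 677, 55.7% had the same sign of change in Ctrl mice, against 50.5% of all probesets.

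At 7 d the levels in CIE mice did not differ detectably from those in Ctrl mice. No probeset passed in CIE 7 d against Ctrl 7 d by limma, with 1056 at an unadjusted p under 0.05 and 1 with array weights. Across the 677 probesets the median absolute difference between CIE 7 d and Ctrl 7 d was 0.06. Nor did any probeset pass between CIE 7 d and CIE 72 h, with 1361 at an unadjusted p under 0.05.

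H2-Aa had the largest fall of any named gene, followed by Plin4, Igtp and Etnppl. H2-Aa (chromosome 17, 34282744 to 34287823), an MHC class II chain, had values of 5.19, 6.29 and 6.70 (lowest, median, highest) in CIE 7 d arrays, against 7.92, 8.75 and 10.73 in CIE 0 h arrays. The groups did not overlap, and the mean fell by 2.99 (SE 0.582, adjusted p = 0.0012), 7.93-fold. This is 1 of 4 H2-Aa probesets, and the other three changed by -0.72 to -1.76 without passing. Plin4 (chromosome 17, 56100587 to 56109948) codes for a perilipin, which coats lipid droplets. It had 6.54, 6.99 and 7.11 in CIE 7 d arrays, against 8.21, 9.51 and 10.78 in CIE 0 h arrays. All 6 arrays at 7 d lay below all 6 at 0 h, with a change of -2.59 (SE 0.345, adjusted p = 3.15e-06), or 6.03-fold lower. Etnppl, an astrocyte enzyme that breaks down phosphoethanolamine, fell by 1.81 (SE 0.208, adjusted p = 1.68e-07), and Gjb6, which encodes the astrocyte gap junction protein connexin 30, by 1.17 (SE 0.12, adjusted p = 1.66e-08). Dmp1, a secreted acidic phosphoprotein of bone and dentin matrix, fell by 1.64 (SE 0.199, adjusted p = 4.91e-07).

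The other falls by size were Igtp (-1.92), Cd74 (-1.55), Sult1a1 (-1.45), Arrdc2 (-1.39), Aox1 (-1.27), Cdkn1a (-1.20) and Ptgds (-1.14), with adjusted p from 6.32e-09 for Aox1 to 0.00735 for Igtp. Cd74 is the invariant chain of MHC class II, Aox1 an aldehyde oxidase, Cdkn1a the cell cycle inhibitor p21 and Ptgds the prostaglandin D synthase of the brain. Ptgds was the only one of these 12 falls whose arrays overlapped, with 11.31 to 12.26 in CIE 7 d and 12.23 to 13.72 in CIE 0 h. With hybridization sets as a block it did not pass (adjusted p = 0.0183).

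Serpinb1a had the largest rise of any named gene, followed by Fcrls, Hes5 and Fabp7. Serpinb1a (chromosome 13, 32842092 to 32853206), an inhibitor of serine proteases, had 8.96, 9.34 and 9.80 in CIE 7 d arrays, against 7.32, 7.78 and 8.52 in CIE 0 h arrays. It rose by 1.46 (SE 0.263, adjusted p = 0.000455), or 2.75-fold, with no overlap. This is 1 of 2 Serpinb1a probesets, and the other did not pass. In Ctrl mice the named probeset changed by 0.43, and the difference of 1.03 did not pass (adjusted p = 0.252). Fcrls (chromosome 3, 87250736 to 87263765), which microglia express and which is related to Fc receptors, had 9.22, 9.31 and 9.49 in CIE 7 d arrays, against 7.45, 7.89 and 8.42 in CIE 0 h arrays. The 7 d arrays lay close together and well above every 0 h array, with a rise of 1.42 (SE 0.108, adjusted p = 1.61e-11). Hes5, the Notch-induced repressor, rose by 1.20 (SE 0.128, adjusted p = 3.85e-08), and Fabp7, the fatty acid binding protein of radial glia and astrocytes, by 1.18 (SE 0.116, adjusted p = 6.32e-09). Gpr17, a receptor of committed oligodendrocyte precursors, rose by 1.06 (SE 0.133, adjusted p = 8.72e-07), and Klk6, a secreted protease of oligodendrocytes, by 1.06 (SE 0.202, adjusted p = 0.000921). The other rises by size were the potassium channel subunit gene Kcne1l (1.05), Pdzph1 (0.97), Gm11627 (0.93), Gkn3 (0.89), the adhesion molecule Vcam1 (0.84) and the secreted metalloprotease Adamts1 (0.82), with adjusted p from 6.95e-08 for Kcne1l to 0.00321 for Gkn3. In Ctrl mice Gm11627 rose by 0.88 and Kcne1l by 0.62 (adjusted p = 2.14e-05 and 0.00579). Pdzph1, Gkn3, Vcam1 and Adamts1 changed by 0.18, 0.57, 0.38 and 0.25 in Ctrl mice and did not pass. The differences between the CIE and Ctrl changes did not pass for any of these genes (adjusted p = 0.0244 to 0.961). Gkn3 overlapped, with 7.37 to 8.10 in CIE 7 d and 6.33 to 8.03 in CIE 0 h, and it passed in 7 of the 12 fits that each left out 1 array. Of the 24 genes named by size, 22 had no overlap, against 1.94% of all probesets, and their size had chosen them. The sign of the change was the same in all 6 hybridization sets for 23 of the 24.

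**Figure D1:**
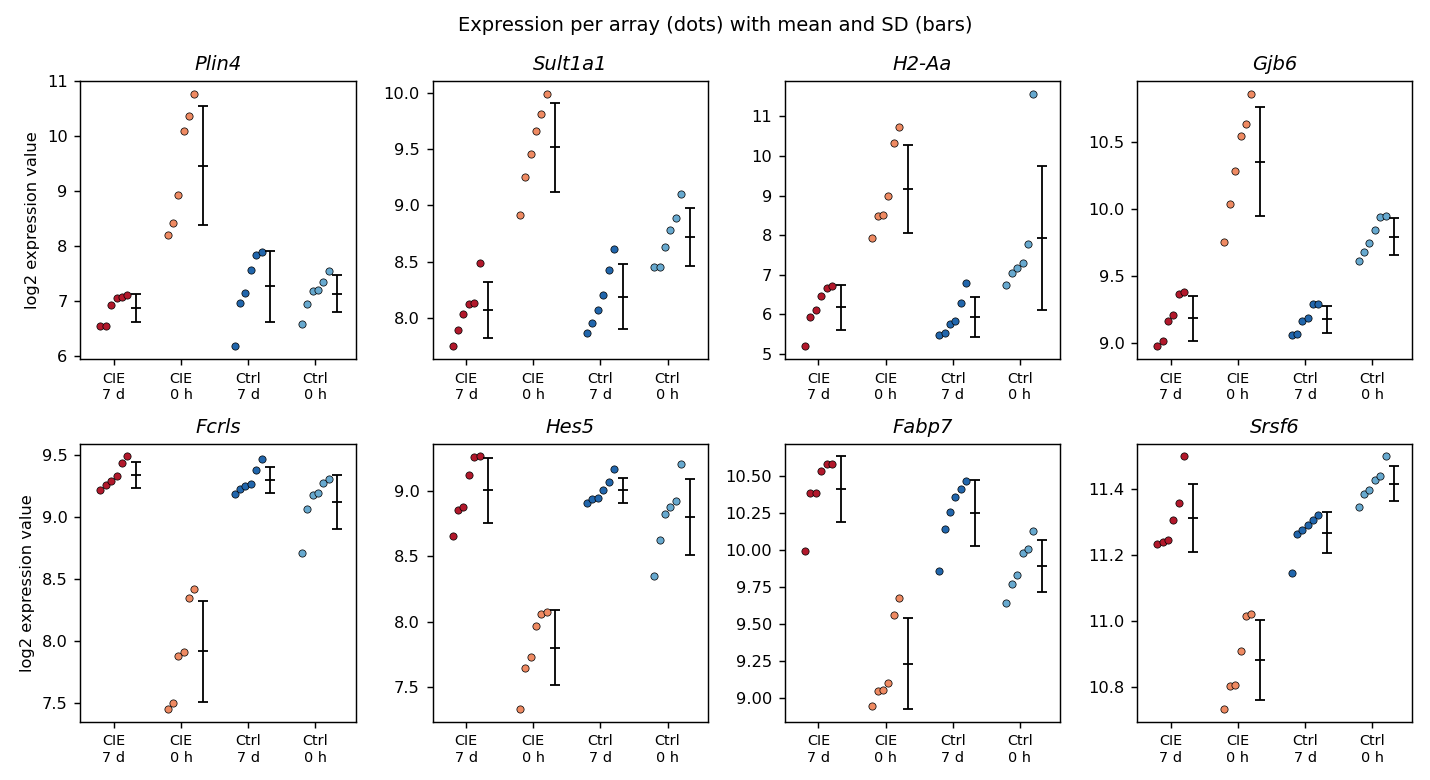
Log2 expression values (y axis) of 8 genes in the CIE 7 d, CIE 0 h, Ctrl 7 d and Ctrl 0 h arrays (x axis). Each dot is 1 array, and the bar beside it gives the mean with its SD over 6 arrays. In all 8 genes the CIE 7 d dots lie apart from the CIE 0 h dots, and the CIE 0 h dots are widely spread for H2-Aa (7.92 to 10.73) and Plin4 (8.21 to 10.78).

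Genes that glucocorticoids induce fell as a group. Of 24 measured members at their brightest probeset, 17 fell, 0 rose and 7 did not pass, whereas 1.14% of all genes fell on that basis. This list and the others below were chosen with earlier results of these data known. Their counts beside the share of all genes are therefore a description and not a test. All 24 changes were negative, and the median change was -0.56, against -0.005 over all genes. With the mean over all probesets of a gene the list median was -0.38. The list's mean level was 9.23 to 9.42 in CIE 7 d arrays and 9.63 to 10.42 in CIE 0 h arrays, so the groups did not overlap. It was 9.30 to 9.57 in Ctrl 7 d arrays and 9.38 to 9.64 in Ctrl 0 h arrays, and the median change in Ctrl mice was -0.05. The CIE 0 h arrays were the highest and varied most, with the highest values in replicates 26, 17 and 5 and the lowest, replicate 72, level with the top of the Ctrl 0 h range.

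Besides Plin4 the members that fell span several functions. Sult1a1, a sulfotransferase, had 7.74, 8.08 and 8.49 in CIE 7 d arrays, against 8.91, 9.56 and 10.00 in CIE 0 h arrays, with a change of -1.45 (SE 0.155, adjusted p = 4.4e-08). Map3k6, a kinase of the stress-activated cascade, fell by 0.60 (SE 0.0803, adjusted p = 3.41e-06), with 6.60 to 6.81 in CIE 7 d arrays and 7.20 to 7.45 in CIE 0 h arrays. Fkbp5, the co-chaperone that restrains the glucocorticoid receptor, changed by -0.68 (adjusted p = 3.08e-05) and had 9.81 to 9.95 in CIE 7 d arrays, against 10.03 to 10.94 in CIE 0 h arrays. Rasd1, a Ras-like protein named for dexamethasone, fell by 1.14 and Zbtb16, a zinc finger transcription factor, by 0.82. Zbtb16 is given at its probeset with the smallest p for the difference between the CIE and Ctrl changes. Ddit4, an inhibitor of mTORC1, fell by 0.90, the kinase Sgk1 by 0.83, and Tsc22d3, the glucocorticoid-induced leucine zipper, by 0.56. Mt1 and Mt2, the metallothioneins, which are also on this list, fell by 0.32 and 0.36. Per1 and Dusp1, which also respond to neuronal activity, did not pass (-0.28 and -0.17), and Lcn2 was near 0 (-0.01).

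The fall was tested against that in Ctrl mice gene by gene, and 4 of the 24 members passed, against 0.231% of all genes. The difference of the changes passed for Plin4 (-2.72, SE 0.487, adjusted p = 0.00282), Map3k6 (-0.69, adjusted p = 0.00107), Hif3a (-0.64, adjusted p = 0.00261) and Zbtb16 (-1.29, adjusted p = 0.00358). For Mt1 it was near 0, since Mt1 fell by 0.32 in CIE and by 0.32 in Ctrl mice (adjusted p = 5.33e-07 and 2.69e-06). Sult1a1 changed by -1.45 in CIE and -0.53 in Ctrl, and the difference of -0.92 did not pass (adjusted p = 0.0289).

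The starts of the genes with the largest falls on this list are shown because the glucocorticoid receptor binds DNA at paired copies of the letters AGAACA. The windows run from 250 bases before to 50 bases after a RefSeq start (GRCm38.p6), 5′ to 3′ on the gene's strand, and capitals mark AGAACA or its reverse complement. They lie at chr17:56109733-56110032 (minus strand) for Plin4, chr7:126676369-126676668 (minus) for Sult1a1 and chr8:70839671-70839970 (minus) for Arrdc2.
Plin4: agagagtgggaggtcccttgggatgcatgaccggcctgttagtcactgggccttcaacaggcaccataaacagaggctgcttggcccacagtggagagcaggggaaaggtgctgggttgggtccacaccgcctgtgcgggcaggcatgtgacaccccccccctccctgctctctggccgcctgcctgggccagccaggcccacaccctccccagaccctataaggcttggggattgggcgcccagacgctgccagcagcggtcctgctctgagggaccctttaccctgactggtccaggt
Sult1a1: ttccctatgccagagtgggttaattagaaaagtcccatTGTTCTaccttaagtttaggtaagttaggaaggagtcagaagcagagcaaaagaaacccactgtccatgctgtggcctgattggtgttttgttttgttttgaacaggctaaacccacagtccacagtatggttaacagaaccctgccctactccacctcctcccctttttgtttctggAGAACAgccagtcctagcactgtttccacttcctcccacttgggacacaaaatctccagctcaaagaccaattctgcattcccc
Arrdc2: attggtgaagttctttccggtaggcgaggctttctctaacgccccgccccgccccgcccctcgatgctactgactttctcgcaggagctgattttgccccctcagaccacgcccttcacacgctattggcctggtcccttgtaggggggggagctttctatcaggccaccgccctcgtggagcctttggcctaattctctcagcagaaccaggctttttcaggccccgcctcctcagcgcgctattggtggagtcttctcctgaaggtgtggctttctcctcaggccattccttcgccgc
Sult1a1 holds 2 such matches, which begin 212 and 34 bases before the start, and these letters are not in the Plin4 and Arrdc2 windows. AGAACA, on either strand, is found in 19.0% of the 32851 windows of the same length, and the full paired glucocorticoid response element in 3 of them. A match is a description and not a bound site.

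Parts of other lists also fell, and of these the FoxO and p53 lists share members with the glucocorticoid list. A common inducer was not tested. Of 24 FoxO and energy-sensing genes 4 fell and 0 rose, against 1.14% and 0.929% of all genes, with a median of -0.19. They were Hif3a, an oxygen-sensing transcription factor subunit (-0.46), Ddit4, Angptl4, a secreted inhibitor of lipoprotein lipase (-0.64), and Txnip, which restrains glucose uptake (-0.67). Hif3a and Ddit4 are also on the glucocorticoid list. With the same shares over all genes, Cdkn1a and Trp53inp1 fell (-1.20 and -0.41) and 0 rose among 18 p53 targets. On the list of 15 purine breakdown and adenosine genes Xdh, xanthine dehydrogenase, fell by 0.74 (adjusted p = 2.41e-05). Upp2, a uridine phosphorylase, was on this list although uridine is a pyrimidine nucleoside. It fell by 0.82 at its probeset with the smallest p (adjusted p = 0.000339). Cirbp, an RNA-binding protein induced by cold, fell by 0.43 (adjusted p = 0.00197). Ctrl mice changed by at most 0.27 in size at any of these genes.

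Of 19 sterol synthesis genes 3 fell and 0 rose, against 1.14% and 0.929% of all genes, with a median of -0.18, against -0.03 in Ctrl mice. Insig1, which holds the sterol sensor complex in the endoplasmic reticulum (ER), had 9.54, 9.85 and 10.03 in CIE 7 d arrays, against 10.28, 10.58 and 10.72 in CIE 0 h arrays, and fell by 0.73 (SE 0.0974, adjusted p = 3.41e-06). Hsd17b7, an enzyme of the late pathway, fell by 0.33, and Fdft1, squalene synthase, by 0.28 (adjusted p = 0.00164 and 0.00463, and 0.0123 for Fdft1 with the sets as a block). Their differences from the Ctrl change did not pass (adjusted p = 0.0106 to 0.117).

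A second group of falls was of like size in Ctrl mice. Aox1 had 7.55, 7.85 and 8.20 in CIE 7 d arrays, against 8.74, 9.11 and 9.46 in CIE 0 h arrays. It fell by 1.27 in CIE and by 1.44 in Ctrl mice (SE 0.123 each, adjusted p = 6.32e-09 and 6.28e-10). Gstm1, a glutathione transferase, fell by 0.69 in CIE and by 0.63 in Ctrl, and the closely related Gstm genes may share its signal. Sdf2l1 and Manf, which serve protein folding in the ER, fell by 0.54 and 0.33 in CIE and by 0.62 and 0.40 in Ctrl. Of 26 ER chaperone and unfolded protein response genes, 4 fell and 0 rose in CIE mice, against 1.14% and 0.929% of all genes. The others that fell were the chaperones Hspa5 (-0.30) and Calr (-0.24). The difference of the changes did not pass for any of these genes, with adjusted p of 0.469 or more. Nrf2 is the regulator of antioxidant genes. Among 18 of its targets, with the same shares over all genes, Gstm1, Srxn1, Osgin1 and Nqo1 fell and 0 rose. Of these Osgin1 fell by 0.56 in CIE mice and changed by -0.12 in Ctrl mice, and the difference passed (-0.44, SE 0.0898, adjusted p = 0.00845).

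**Figure D2:**
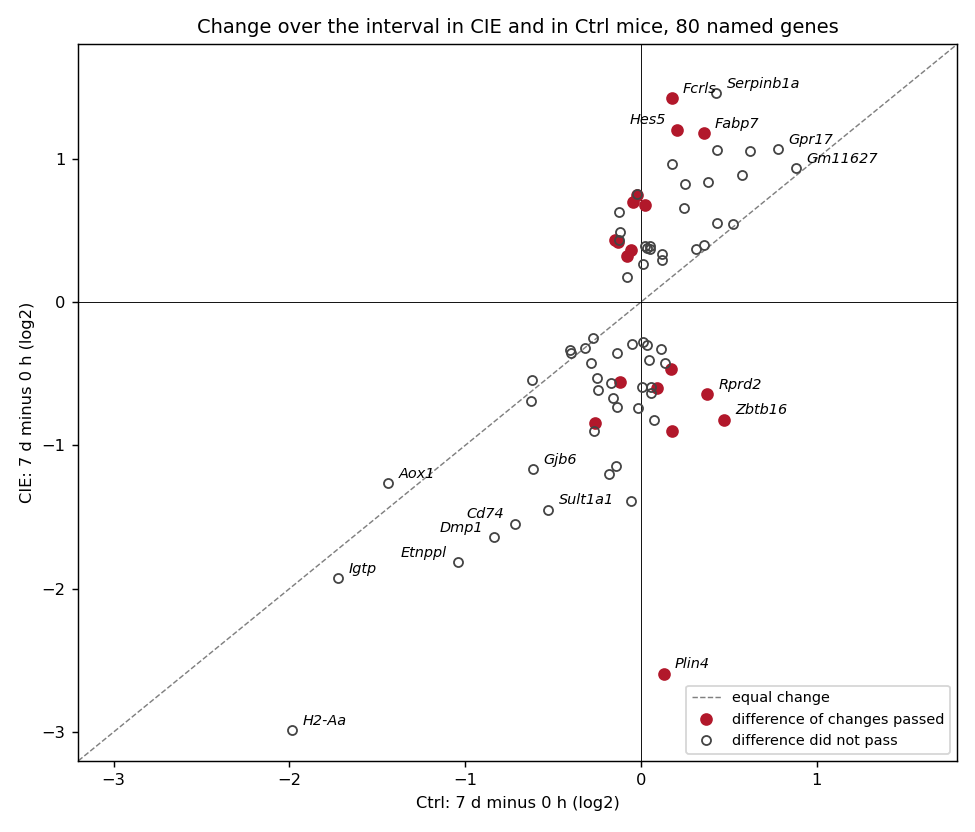
Change over the interval in Ctrl mice (x axis, log2) and in CIE mice (y axis, log2) for the 80 named genes, each dot 1 gene. Filled dots are the 18 genes whose changes differed between CIE and Ctrl mice at an adjusted p of 0.01 or less, and the broken line marks equal change. The genes were chosen by their change in CIE mice or by this difference, so the number of filled dots is not a test. Plin4 lies at -2.59 in CIE and 0.13 in Ctrl, and Aox1 near the line at -1.27 and -1.44.

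Genes of antigen presentation and interferon response were lower at 7 d in both treatments, with wide spread at 0 h. All 9 measured MHC class I genes were lower, with a median of -1.10, or -0.56 with the mean over all probesets of a gene, yet none passed at 0.01 and 4 passed at 0.05. The list's mean level was 8.29 to 8.88 in CIE 7 d arrays and 8.87 to 9.94 in CIE 0 h arrays. Of 22 interferon-stimulated genes all 22 were lower in CIE 7 d and 1 passed, where 1.14% of all genes fell. This was Igtp, an interferon-induced GTPase (-1.92, SE 0.445, adjusted p = 0.00735). Of the 12 fits that each left out 1 array, Igtp passed in 2 and Cd74 in 4. In Ctrl mice the list medians were -0.78 for MHC class I and -0.51 for interferon-stimulated genes, with 0 of 9 and 0 of 22 past the threshold, against 0.121% of all genes.

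A single Ctrl array stood apart. Ctrl 0 h replicate 20 had an MHC class I level of 10.58, against 8.32 to 8.76 in the other five arrays of its group, and it was also the array with no hybridization set. Without it the Ctrl medians were -0.37 and -0.30. H2-Aa changed by -2.99 in CIE and by -1.99 in Ctrl mice, and by -1.26 in Ctrl mice without that array. Cd74 had 6.74 to 7.12 in CIE 7 d arrays, against 7.73 to 9.12 in CIE 0 h arrays, and fell by 1.55 (adjusted p = 0.00502). In Ctrl mice it changed by -0.71, or by -0.19 without replicate 20. The differences between the CIE and Ctrl changes did not pass for H2-Aa, Cd74 or Igtp (adjusted p = 0.762, 0.61 and 0.957). Within the CIE 0 h group, the highest MHC class I levels were in replicates 72 and 67, which had the lowest glucocorticoid list levels. The other arrays did not follow this order. Replicate 26, highest for the glucocorticoid list (10.42), came next for MHC class I (9.55). Replicate 43 was lowest for MHC class I (8.87), with a glucocorticoid level of 9.91. A relation between the lists was not tested.

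**Figure D3:**
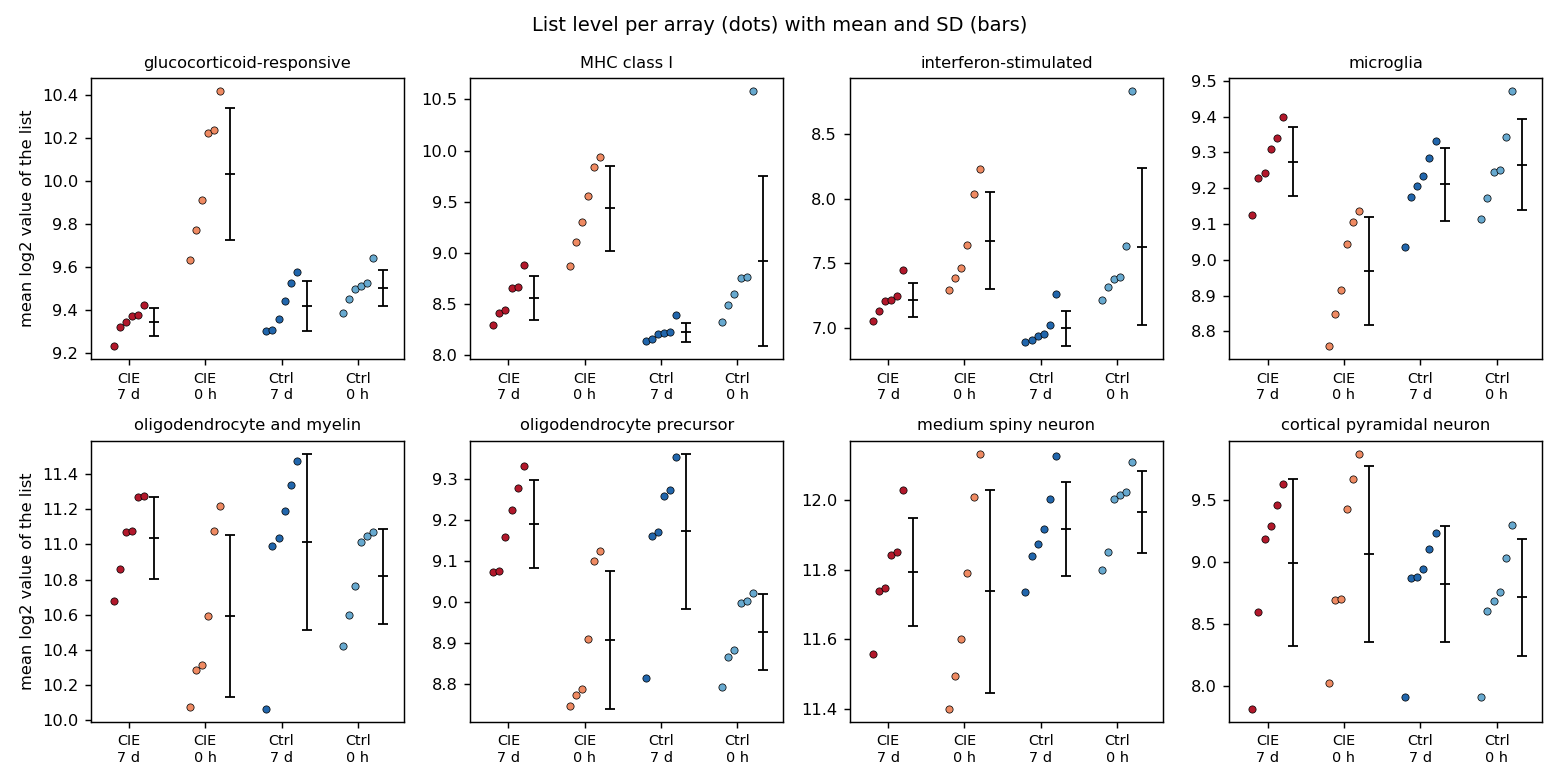
Mean log2 level of the measured members of 8 gene lists (y axis) in each of the CIE 7 d, CIE 0 h, Ctrl 7 d and Ctrl 0 h arrays (dots), with the mean and SD over 6 arrays beside them. The glucocorticoid-responsive level is highest in CIE 0 h arrays, at 9.63 to 10.42, against at most 9.64 in Ctrl 0 h arrays, and the MHC class I panel shows the single Ctrl 0 h array at 10.58.

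A minority of homeostatic microglia genes rose. Of 19 measured, 5 rose, 0 fell and 14 did not pass, whereas 0.929% of all genes rose on that basis. The median change was 0.26 in CIE and -0.03 in Ctrl mice, and 0.16 in CIE mice with the mean over all probesets of a gene. The mean level of the list was 9.12 to 9.40 in CIE 7 d arrays and 8.76 to 9.14 in CIE 0 h arrays. Besides Fcrls, P2ry12, the ADP receptor of microglial processes, had 9.87, 9.96 and 10.09 in CIE 7 d arrays, against 9.07, 9.24 and 9.60 in CIE 0 h arrays. It rose by 0.68 (SE 0.091, adjusted p = 3.85e-06). Olfml3, a secreted glycoprotein, rose by 0.75, Gpr34, a lysophosphatidylserine receptor, by 0.66 and P2ry13, a related ADP receptor, by 0.66. The 14 that did not pass changed by -0.36 (C1qa, a complement subunit) to 0.48 (Cx3cr1, the fractalkine receptor), and 3 of them, C1qa, C1qc and Mertk, were negative. Of 22 other myeloid and inflammation genes 0 rose and 1 fell, against 0.929% and 1.14% of all genes. The fall was that of Nfkbia, the NF-kB inhibitor that glucocorticoids also induce. In tissue RNA, fewer cells of a type and less RNA per cell cannot be told apart. The difference between the CIE and Ctrl changes passed for Fcrls (1.25, SE 0.153, adjusted p = 9.71e-06) and P2ry12 (0.66, SE 0.129, adjusted p = 0.00559).

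Notch and neural progenitor genes rose in part. Of 25 Notch pathway genes, 3 rose and 0 fell, against 0.929% and 1.14% of all genes. They were Hes5, the receptor Notch1 (0.38, adjusted p = 0.00302) and Nrarp, a Notch-induced feedback inhibitor (0.54, adjusted p = 0.00384). Hes5 averaged 9.01 in CIE 7 d arrays (8.65 to 9.26) and 7.80 in CIE 0 h arrays (7.33 to 8.07). Both of its probesets passed, and the CIE change exceeded that in Ctrl mice by 1.00 (SE 0.181, adjusted p = 0.00286). Nrarp changed by about the same amount in Ctrl mice (0.52), and its difference did not pass (adjusted p = 0.986). Of 15 neural progenitor regulators 5 rose and 0 fell, against the same shares of all genes. The list median was 0.24 in CIE mice, against 0.04 in Ctrl mice, and 0.14 in CIE mice with the mean over all probesets of a gene. The 5 that rose were the transcription factors Sox21, Nr2e1 and Sox2, the Wnt receptor Fzd2 and the helix-loop-helix inhibitor Id3. Sox21 had 7.68, 7.81 and 8.06 in CIE 7 d arrays, against 7.06, 7.16 and 7.21 in CIE 0 h arrays. It rose by 0.69 (SE 0.084, adjusted p = 4.77e-07), and the difference from Ctrl passed (0.74, SE 0.119, adjusted p = 0.000823). At its brightest probeset Sox21 rose by 0.41 (adjusted p = 0.000477), and the difference of 0.32 did not pass (adjusted p = 0.18). Nr2e1 rose by 0.63 and Sox2 by 0.39 with Ctrl changes of -0.12 and 0.05, and Fzd2 rose by 0.55 in CIE and by 0.43 in Ctrl mice. Fabp7, the protein of radial glia and astrocytes, is not on this list. It had 9.99, 10.46 and 10.58 in CIE 7 d arrays, against 8.95, 9.08 and 9.68 in CIE 0 h arrays. Its difference from Ctrl passed (0.82, SE 0.163, adjusted p = 0.00649). Which cells of the tissue carried these rises was not tested.

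The start of Hes5, chosen after its values were seen, is shown because the Notch effector RBPJ binds the letters GTGGGAA. The window is at chr4:154960673-154960972 (plus strand, GRCm38.p6, RefSeq) and capitals mark that motif or its reverse complement.
Hes5: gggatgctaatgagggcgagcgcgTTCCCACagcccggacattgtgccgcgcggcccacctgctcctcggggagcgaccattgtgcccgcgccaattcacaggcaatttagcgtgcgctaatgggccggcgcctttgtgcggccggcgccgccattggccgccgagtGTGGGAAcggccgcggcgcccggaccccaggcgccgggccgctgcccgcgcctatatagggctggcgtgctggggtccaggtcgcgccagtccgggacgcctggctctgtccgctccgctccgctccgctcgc
The 2 matches begin 226 and 83 bases before the start and are on opposite strands. A match on either strand is found in 6.38% of the 32851 windows, and nothing about binding follows from it.

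A few genes of RNA splicing rose by small amounts. Of 43 measured, 5 rose and 0 fell at the brightest probeset (0.929% of all genes rose and 1.14% fell), and 37 changes were positive, with a median of 0.07 in CIE and 0.004 in Ctrl mice. The 5 were Clk1 and Clk4, kinases that phosphorylate splicing factors, the RNA-binding proteins Hnrnpa2b1 and Hnrnph1, and Rbm39. Clk1 had 12.11, 12.27 and 12.54 in CIE 7 d arrays, against 11.81, 11.97 and 12.10 in CIE 0 h arrays, and rose by 0.32 (SE 0.0534, adjusted p = 0.000167). Srsf6, an SR protein, rose at 1 of 4 probesets, with 11.23 to 11.50 in CIE 7 d arrays and 10.73 to 11.02 in CIE 0 h arrays. Its change of 0.43 (SE 0.0509, adjusted p = 3.03e-07) differed from that in Ctrl mice by 0.58 (SE 0.0719, adjusted p = 9.71e-06), while the other three probesets changed by -0.002 to 0.14 and did not pass. The differences from Ctrl also passed for Clk1 (0.40, adjusted p = 0.00409) and, at its probeset with the smallest p, for Hnrnpa2b1 (0.41, adjusted p = 0.00286). At the brightest probesets the difference passed for 1 of the 43, Clk1. None of 45 chromatin modifier genes passed, and 30 of their changes were positive.

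Vessel genes gave 7 rises and 1 fall among 22, against 0.929% and 1.14% of all genes. The rises were Itm2a, Vtn, Pdgfrb, Slco1c1, Tek, Abcc9 and Rgs5, markers of endothelial cells and pericytes, with changes from 0.26 to 0.43. Slc2a1, the glucose transporter of the blood-brain barrier, fell by 0.31 (adjusted p = 0.007). The other 14 did not pass. Of the 22 changes 14 were positive and 8 negative, with a median of 0.08 in CIE and 0.04 in Ctrl mice. The level of the list overlapped, with 8.75 to 8.94 in CIE 7 d arrays and 8.60 to 8.81 in CIE 0 h arrays. Vtn, vitronectin, rose by 0.42 in CIE mice and changed by -0.13 in Ctrl mice, and the difference passed (0.55, SE 0.103, adjusted p = 0.00384). Pdgfrb, the pericyte growth factor receptor, rose by 0.40 in CIE and changed by 0.36 in Ctrl mice.

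Astrocyte genes moved both ways. Of 20, 3 rose and 2 fell, against 0.929% and 1.14% of all genes. Ntsr2 (0.25), the water channel Aqp4 (0.39) and the amino acid transporter Slc7a10 (0.35) rose, and Etnppl and Gjb6 fell. Gjb6 had 8.98, 9.19 and 9.39 in CIE 7 d arrays, against 9.76, 10.42 and 10.86 in CIE 0 h arrays, and it also fell in Ctrl mice (-0.62, adjusted p = 0.00914). Aldoc, aldolase C, fell by 0.84 (SE 0.0841, adjusted p = 9.06e-09) at a probeset that was not its brightest, and the glutamate transporter Slc1a3 rose by 0.34 at 1 of 6 probesets. The difference from Ctrl passed for Aldoc (-0.58, SE 0.119, adjusted p = 0.00882).

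Myelin genes were higher in all 17 members, with a median of 0.47 in CIE and 0.21 in Ctrl mice, but only Klk6 passed. The level of the list overlapped, with 10.68 to 11.27 in CIE 7 d arrays and 10.08 to 11.22 in CIE 0 h arrays. Of 14 oligodendrocyte precursor genes 1 rose, Gpr17, and 0.929% of all genes rose on that basis. Gpr17 had 9.50, 9.62 and 9.76 in CIE 7 d arrays, against 8.07, 8.65 and 8.71 in CIE 0 h arrays, and it rose by 0.78 in Ctrl mice too (adjusted p = 0.00162). The part of the myelin level in the rises of Klk6 and Gpr17 was not tested.

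**Figure D4:**
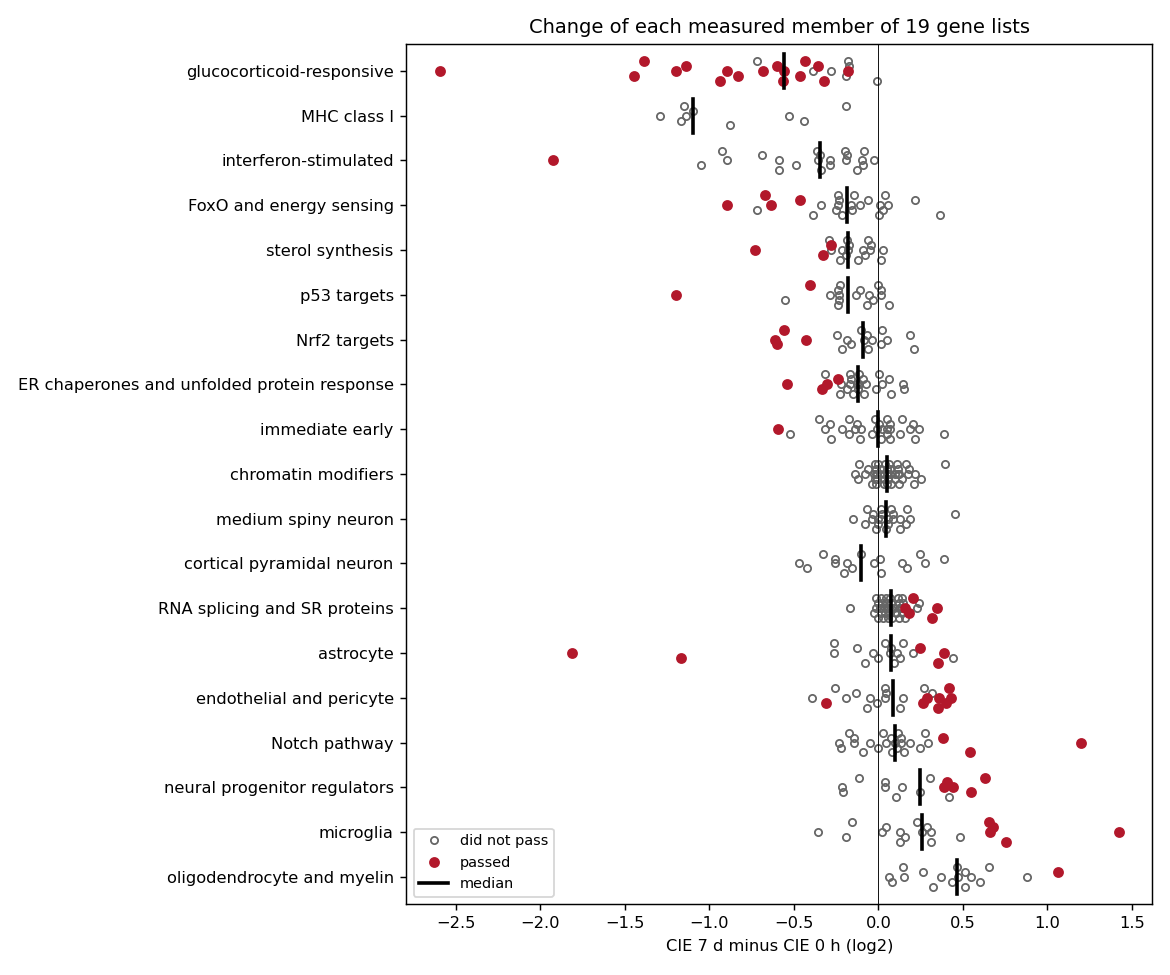
Change in CIE mice from 0 h to 7 d (x axis, log2) of each measured member of 19 gene lists (rows), each gene at its brightest probeset. Filled dots passed at an adjusted p of 0.01 or less, and the black bar is the list's median. The glucocorticoid-responsive row has 17 filled dots, all below 0, and the microglia row 5, all above 0.

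Genes induced by neuronal activity did not change as a group. Of 32 immediate early genes 0 rose and 1 fell, against 0.929% and 1.14% of all genes. In CIE mice 16 changes were positive and 16 negative, and the median was -0.004, against -0.20 in Ctrl mice. Fos, Arc and Nr4a1 changed by -0.04, 0.24 and 0.05 in CIE mice and did not pass. In Ctrl mice they fell by 1.21, 0.92 and 0.82 (adjusted p = 0.00202, 0.00884 and 0.00162). The differences between CIE and Ctrl did not pass (adjusted p = 0.0459, 0.0148 and 0.0213). The 1 fall was Maff, a small Maf transcription factor, which had 5.90, 6.26 and 6.35 in CIE 7 d arrays, against 6.41, 6.70 and 7.49 in CIE 0 h arrays. It fell by 0.59 (SE 0.127, adjusted p = 0.00344) with no overlap, but not with hybridization sets as a block (adjusted p = 0.011).

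A start of Maff is shown because cAMP and calcium signals act on such genes through CREB, which binds TGACGTCA. RefSeq gives 3 starts, of which the second (chr15:79347270-79347569, plus strand, GRCm38.p6) holds the motif, in capitals.
Maff: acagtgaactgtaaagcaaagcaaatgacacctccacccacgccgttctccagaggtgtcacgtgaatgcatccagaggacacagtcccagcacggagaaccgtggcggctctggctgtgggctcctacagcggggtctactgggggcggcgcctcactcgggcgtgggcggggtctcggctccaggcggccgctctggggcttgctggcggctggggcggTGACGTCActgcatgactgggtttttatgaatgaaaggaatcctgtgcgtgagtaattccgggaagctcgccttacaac
It begins 29 bases before that start. TGACGTCA is found in 1.79% of windows, its shorter form TGACG in 20.8% and the serum response element, which this window does not hold, in 0.0639%, each on either strand.

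Transmitter systems changed little. None of 26 neuropeptide, 14 dopamine, 22 GABA and glycine receptor or 27 potassium channel genes passed at the brightest probeset, and neither did any of 27 ribosomal protein or 44 oxidative phosphorylation genes. Among 29 glutamate receptor and scaffold genes 2 rose and 0 fell, against 0.929% and 1.14% of all genes. The rises were Grm3, a metabotropic receptor found on astrocytes (0.37, adjusted p = 0.000655), and the NMDA receptor subunit Grin2c (0.37, adjusted p = 0.00473). At other probesets Gabra2, a GABA-A receptor subunit, rose by 0.43 and the potassium channel Kcna1 fell by 0.30. With the sets as a block Grin2c, Gabra2 and Kcna1 did not pass (adjusted p = 0.0145, 0.0156 and 0.0106). The long noncoding RNA Firre had 8.57, 8.69 and 9.14 in CIE 7 d arrays, against 7.75, 8.00 and 8.16 in CIE 0 h arrays. Firre rose by 0.75 (SE 0.0863, adjusted p = 1.89e-07), and its change exceeded that in Ctrl mice by 0.77 (SE 0.122, adjusted p = 0.000823). Of its 4 probesets 3 rose, while the brightest changed by 0.03 in CIE mice (adjusted p = 0.94) and its difference did not pass (adjusted p = 0.811).

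Of the genes whose changes differed most between CIE and Ctrl mice, Plin4, Zbtb16, Zfand4 and Rprd2 fell in CIE mice and Fcrls rose. Zbtb16, Zfand4 and Rprd2 are given at the probeset that had the smallest p for this difference. Zfand4, a zinc finger protein, fell by 0.90 in CIE mice and changed by 0.18 in Ctrl mice, a difference of -1.08 (SE 0.202, adjusted p = 0.00386). Rprd2, which binds the tail of RNA polymerase II, fell by 0.64 in CIE mice and changed by 0.38 in Ctrl mice, a difference of -1.02 (SE 0.152, adjusted p = 0.000343). This was 1 of 8 Rprd2 probesets, and the other seven changed by -0.09 to 0.17.

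The 8 h and 72 h groups show when the levels moved. At the probesets named above, Srsf6, Map3k6, Firre and Rprd2 had moved by 8 h. Other probesets of Srsf6, Firre and Rprd2 did not all change over the interval, as given above. The mean of Srsf6 over the 4 times, 0 h first, was 10.88, 11.30, 11.36 and 11.31, and that of Map3k6 7.31, 6.70, 6.50 and 6.70. That of Firre was 7.99, 8.63, 8.74 and 8.73 and that of Rprd2 8.49, 7.61, 7.72 and 7.85, and the 8 h change passed in all 4 genes (adjusted p = 7.41e-06 to 3.77e-05). Other genes had not moved toward their 7 d level by 8 h. In the same order of times Plin4 averaged 9.47, 9.77, 7.07 and 6.88, Gjb6 10.35, 10.48, 9.33 and 9.19, and Hes5 7.80, 7.39, 9.03 and 9.01. Their 8 h changes did not pass (adjusted p = 0.809, 0.742 and 0.11), and their 72 h changes did (adjusted p = 3.83e-05, 1.14e-06 and 1.51e-07). Fcrls lay between these patterns, with 7.92, 8.37, 9.34 and 9.34. H2-Aa averaged 9.16, 9.52, 6.70 and 6.18, and Aox1 9.12, 9.77, 8.28 and 7.85. These contrasts share the 0 h or 7 d arrays, so their values stand side by side and no share is taken.

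**Figure D5:**
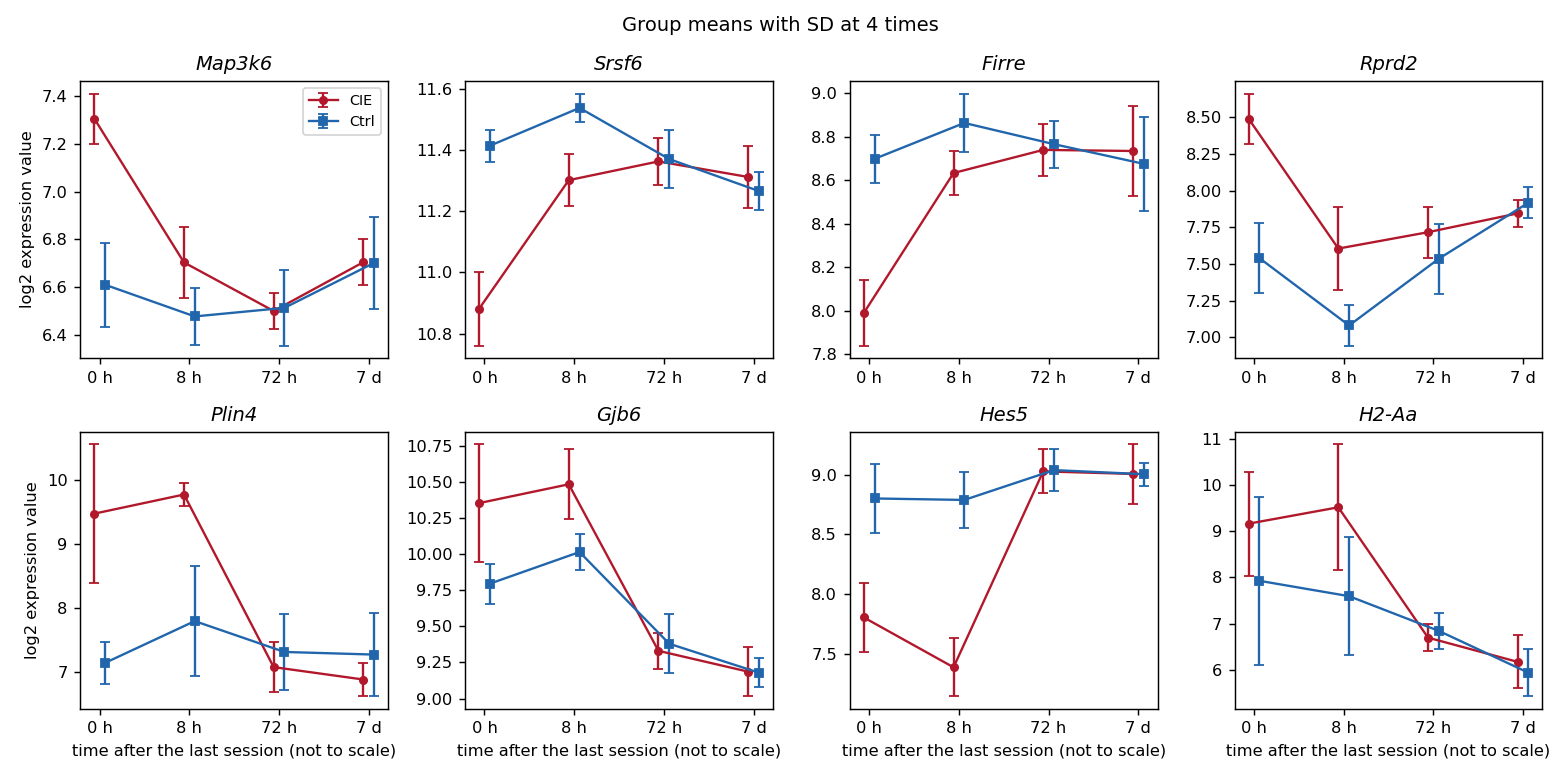
Mean log2 expression value (y axis) with SD of 8 genes at 0 h, 8 h, 72 h and 7 d (x axis, not to scale) in CIE mice (circles) and Ctrl mice (squares), n = 5 or 6 arrays. In the upper row the CIE means at 8 h have left the 0 h level, as for Map3k6 at 6.70, and in the lower row they have not, as for Plin4 at 9.77, and at 7 d no CIE mean differed from the Ctrl mean past the threshold.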

How the data were processed

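RNA of single mice was hybridized to Affymetrix Mouse Genome 430 2.0 arrays. The authors deposited 1 log2 value for each probeset and array. They had run RMA background correction and quantile normalization batch by batch, then a joint quantile normalization, then ComBat against what remained of the batches, so within-batch differences may be shrunken or shifted. Versions are not given in the sources used here. Groups came from the sample titles.

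A mean for each of the 8 groups was fitted to all 45 arrays and 45037 probesets with limma 3.58.1 in R 4.3.3, with default empirical Bayes settings. Within a contrast the Benjamini-Hochberg adjusted p had to be 0.01 or less. A single symbol was given for 34945 probesets (18193 genes). Of 879 genes in 39 lists, 785 were measured. The members and lists were chosen with earlier results of these data known. List counts and medians use each gene's brightest probeset. Named genes (80) are at their probeset with the smallest p: the 12 rises and 12 falls of largest size, up to 4 passing members a list and 5 genes by the difference between CIE and Ctrl. The text also gives list members at the brightest probeset. Promoters were found for 64 of the 80.

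The labels give no batch. Arrays sharing at least 5 exactly equal values (tolerance 2e-08) were taken as 1 hybridization set. This gave 6 sets, each with 1 CIE 7 d and 1 CIE 0 h array. In data simulated for CIE 7 d minus CIE 0 h over 45037 probesets, 29.9% of changes of 0.3, 80.6% of 0.5 and 93.9% of 1 were found, with 3 false calls. Alternatives were another normalization or scaling, a filter on dim probesets, other empirical Bayes settings, array weights, fewer arrays, the sets as a block, 1 probeset a gene, another threshold and leaving out arrays.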

Additional observations from a re-analysis of the deposited data

Results flagged for a closer look

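The change over the interval differed between CIE and Ctrl mice by limma in 18 of the 80 named genes, with adjusted p from 9.71e-06 to 0.00882. Most of the 80 were chosen by their change in CIE mice, whose arrays this difference also uses, and some by the difference itself. The count is therefore raised by the choice of genes and is a description, not a test. Over all probesets 0.2% passed for this difference, and 0.231% of all genes did so at the brightest probeset. The change in CIE mice exceeded that in Ctrl mice in 10 genes, Fcrls (1.25), Hes5 (1.00), Fabp7 (0.82), Firre (0.77), Sox21 (0.74), P2ry12 (0.66), Srsf6 (0.58), Vtn (0.55), Hnrnpa2b1 (0.41) and Clk1 (0.40), on the log2 scale. It was more negative in CIE mice in 8 genes, Plin4 (-2.72), Zbtb16 (-1.29), Zfand4 (-1.08), Rprd2 (-1.02), Map3k6 (-0.69), Hif3a (-0.64), Aldoc (-0.58) and Osgin1 (-0.44).

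In 12 of 160 groups of 6 arrays a single array lay far from the other five (Dixon's test), and chance gives about 1 in 20. CIE 7 d replicate 13 had the highest value of its group for Gm11627 (8.34, next 8.01), Etnppl (9.19, next 8.43) and Firre (9.14, next 8.71) and the lowest for Calr (10.92, next 11.09). The lowest CIE 7 d values were those of replicate 65 for Fabp7 (9.99, next 10.38), replicate 37 for Dmp1 (5.51, next 6.18) and replicate 45 for Maff (5.90, next 6.19). CIE 0 h replicate 5 was lowest of its group for Gpr17 (8.07, next 8.58), Vcam1 (8.35, next 8.60) and Slco1c1 (10.65, next 10.82). In the same group replicate 72 was lowest for Mt1 (13.65, next 13.71) and replicate 43 for Zbtb16 (8.50, next 9.23).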

How the results depend on the processing

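No named gene changed sign under any alternative. For CIE 7 d minus CIE 0 h, 461 probesets passed with the hybridization sets as a block, 443 of them among the 677, and the other settings gave 444 when each gene kept its brightest probeset, 129 with only the arrays compared, 931 with array weights and 1496 at 0.05. Leaving out 1 array gave 421 (without CIE 0 h replicate 26) to 750, and 426 without CIE 0 h replicate 5. Of the 80 named genes, 72 passed with the sets as a block, 34 with only the 12 compared arrays and 61 in all 12 fits with 1 array left out. For Ctrl 7 d minus Ctrl 0 h, 20 passed with array weights, 19 with the block, 15 with only the arrays compared, 62 at 0.05, and 22 (without Ctrl 7 d replicate 62) to 33 with 1 array left out, with 23 without Ctrl 7 d replicate 28. For the difference between CIE and Ctrl changes, 16 passed with the block, 53 with only the brightest probeset, 11 with only the arrays compared, 340 at 0.05, and 42 (without CIE 0 h replicate 5) to 117 with 1 array left out, with 51 without Ctrl 0 h replicate 30 and 59 without CIE 0 h replicate 26. For CIE 7 d minus Ctrl 7 d and for CIE 7 d minus CIE 72 h, 1 probeset each passed with array weights and 0 to 0 with 1 array left out. The causes were not tested. Beside the settings above, 2 were chosen after seeing the data: 577 passed without both CIE 7 d replicate 13 and CIE 0 h replicate 72, and 887 with the cortical marker level as a covariate. With the mean over all probesets of a gene, the list medians were -0.38 for glucocorticoid-responsive genes, -0.56 for MHC class I and 0.16 for microglia. They were 0.14 for neural progenitor regulators, 0.04 for the Notch pathway and -0.03 for long noncoding RNAs. The labels' replicate numbers pair no arrays, since the groups share none, and the inferred sets served as the block. Changes near 0.3 are often missed with 6 arrays a group.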
